A study of Homo sapiens with 16 samples.

Results

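The 9 genes described here encode contactins (CNTN1, CNTN2, CNTN3, CNTN4, CNTN5 and CNTN6) and contactin-associated proteins (CNTNAP2, CNTNAP4 and CNTNAP5). They were taken by name from 19970 protein-coding genes, and for each the peaks of open chromatin were counted from 20 kb before the hg38 gene body to 20 kb after it. The data are ATAC-seq peak lists from brain organoids rich in dorsal telencephalon, made from the human embryonic stem cell line H9. ATAC-seq uses the Tn5 transposase to cut and tag accessible DNA. All groups came from a single reporter line whose genotype is labelled WT. In it EGFP follows 1 allele of SOX2, and dTomato driven by a human SYN1 promoter sits in the AAVS1 locus. SOX2::EGFP+ cells, called progenitors below, and hSyn1::dTomato+ cells, called neurons, were each sorted on days 40, 60, 90 and 120, which gave 8 groups of 2 libraries, 16 in all. The neurons are therefore cells in which the transgene's promoter was active, and the labels do not give the number of clones behind the line.

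Contactins are cell-surface proteins of the immunoglobulin superfamily that are held in the membrane by a lipid anchor. CNTNAP proteins span the membrane and resemble neurexins, and several of them bind a contactin on the same cell. The proteins are best known for adhesion between axons and glia, for the clustering of potassium channels beside nodes of Ranvier, and for axon and dendrite growth in the developing cortex. Many of the genes are among the longest in the genome, and CNTNAP2 and several contactin genes have been studied in neurodevelopmental disorders.

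Peak lists differed in how much was called, which bears on every value below. They held 67977 to 138432 peaks and covered 36.9 to 104 Mb, the least in progenitor day 120 replicate 2 and the most in neuron day 40 replicate 1. The lists hold no read counts, so depth is unknown, and no interval or floor based on counts could be given. Scaled coverage is therefore log2 of the covered bases plus 500, minus log2 of the library's covered megabases. Each library pools many sorted cells, so a site open in fewer cells and a site less open in each cell cannot be told apart. It is not stated whether the libraries within a group are from different cultures, and the p-values then reflect only how much these libraries vary, possibly for technical reasons.

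The populations were checked against marker loci. SOX2 had 7.10 to 18.0 kb of peaks in progenitors and 3.81 to 8.94 kb in neurons. Of 8 progenitor markers, 5 had higher scaled coverage in progenitors (SOX2, HES1, VIM, SLC1A3 and PAX6), and of 8 neuronal markers 3 had lower (RBFOX3, MYT1L and NEFM). The mean scaled coverage over the neuronal list was 6.76 to 7.13 in progenitors and 7.03 to 7.32 in neurons, so it overlapped. None of 6 oligodendrocyte-lineage, 4 microglial, 4 endothelial or 2 pluripotency markers was called, and 2 of 6 inhibitory-neuron markers (DLX1 and DLX2) were higher in progenitors. Summed coverage of the inhibitory list was 23.8 to 48.8 kb in progenitors and 21.6 to 58.7 kb in neurons. NANOG was the only marker with no peak in some libraries, 4 of the 16. The part of other cell types in the results below was not tested.

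Starts whose accessibility differed between the populations are shown first, because the start is where a peak can be tied to a named gene. Each sequence is the RefSeq promoter of GRCh38.p14 from 250 bases before the annotated start to 50 after it, read 5′ to 3′ on the gene's own strand. Capitals mark matches to a short E-box, CAGCTG or CAGATG on either strand, the kind of motif that neural bHLH factors bind. The 4 promoters belong to CNTN6 (chr3:1092774-1093073, plus strand), CNTN3 (chr3:74614610-74614909, minus strand), CNTNAP5 (chr2:124025037-124025336, plus strand) and CNTN2 (chr1:205042699-205042998, plus strand).
CNTN6: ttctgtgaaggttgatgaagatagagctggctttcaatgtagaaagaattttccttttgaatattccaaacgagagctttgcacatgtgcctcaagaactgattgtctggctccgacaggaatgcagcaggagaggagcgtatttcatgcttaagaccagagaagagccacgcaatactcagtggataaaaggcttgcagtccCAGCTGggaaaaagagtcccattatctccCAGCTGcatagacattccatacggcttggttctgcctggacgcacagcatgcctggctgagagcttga
CNTN3: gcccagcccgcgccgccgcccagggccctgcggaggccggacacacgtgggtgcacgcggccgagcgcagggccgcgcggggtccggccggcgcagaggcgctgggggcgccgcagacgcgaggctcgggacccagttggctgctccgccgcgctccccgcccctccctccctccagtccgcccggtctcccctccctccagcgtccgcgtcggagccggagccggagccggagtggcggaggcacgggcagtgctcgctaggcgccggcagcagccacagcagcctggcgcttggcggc
CNTNAP5: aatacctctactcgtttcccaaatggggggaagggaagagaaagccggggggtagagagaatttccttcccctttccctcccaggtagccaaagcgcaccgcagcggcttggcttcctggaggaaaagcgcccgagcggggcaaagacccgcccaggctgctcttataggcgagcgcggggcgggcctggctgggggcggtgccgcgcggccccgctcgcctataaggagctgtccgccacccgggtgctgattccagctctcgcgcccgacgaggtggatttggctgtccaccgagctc
CNTN2: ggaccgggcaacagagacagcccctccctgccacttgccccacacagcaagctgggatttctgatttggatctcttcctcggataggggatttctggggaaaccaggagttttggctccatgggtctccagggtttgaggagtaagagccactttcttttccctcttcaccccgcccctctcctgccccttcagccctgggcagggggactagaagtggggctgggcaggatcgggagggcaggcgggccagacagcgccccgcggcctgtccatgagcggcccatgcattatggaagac

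The CNTN6 promoter held 2 copies of CAGCTG and 6 CpG dinucleotides. The other 3 promoters printed held no match to either motif. CAGCTG occurred in 17.9% of the 35116 promoters in the table and CAGATG in 14.7%, so a match is common and is only a description. The promoters of CNTN3 and CNTNAP5 held 43 and 26 CpG dinucleotides, against a median of 14 over all promoters, and that of CNTN2 printed here held 9. The table gives CNTN2 another promoter that overlaps the printed one (205042962 to 205043261), with 23 CpG dinucleotides and no match to any motif searched. A pair of motifs like those bound by SOX factors, ACAATG (found in 10.8% of promoters) and ACAAAG (16.1%), was also searched on both strands, and no promoter of the 9 genes held either.

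The share of each window under peaks differed between the genes. CNTN2, a short gene, had the highest covered share of its window in both populations, with a median over libraries of 4.99% in progenitors and 6.86% in neurons. CNTNAP5 had the lowest share in progenitors, 0.613%, and CNTN6 the lowest in neurons, 0.484%. In progenitors the order of median shares ran from CNTN2 through CNTN3, CNTNAP2, CNTN4, CNTN6, CNTNAP4, CNTN5 and CNTN1 to CNTNAP5. In neurons it ran from CNTN2 through CNTNAP2, CNTN3, CNTN4, CNTN1, CNTN5, CNTNAP4 and CNTNAP5 to CNTN6. The ranges over libraries of neighbours in either order overlapped. For comparison, the median share in a library was between 1.85% and 4.99% over all genes, and between 1.25% and 4.09% over the 771 genes of 300 kb or more. CNTN2 lay above the median of all genes in every neuron library.

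**Figure D1:**
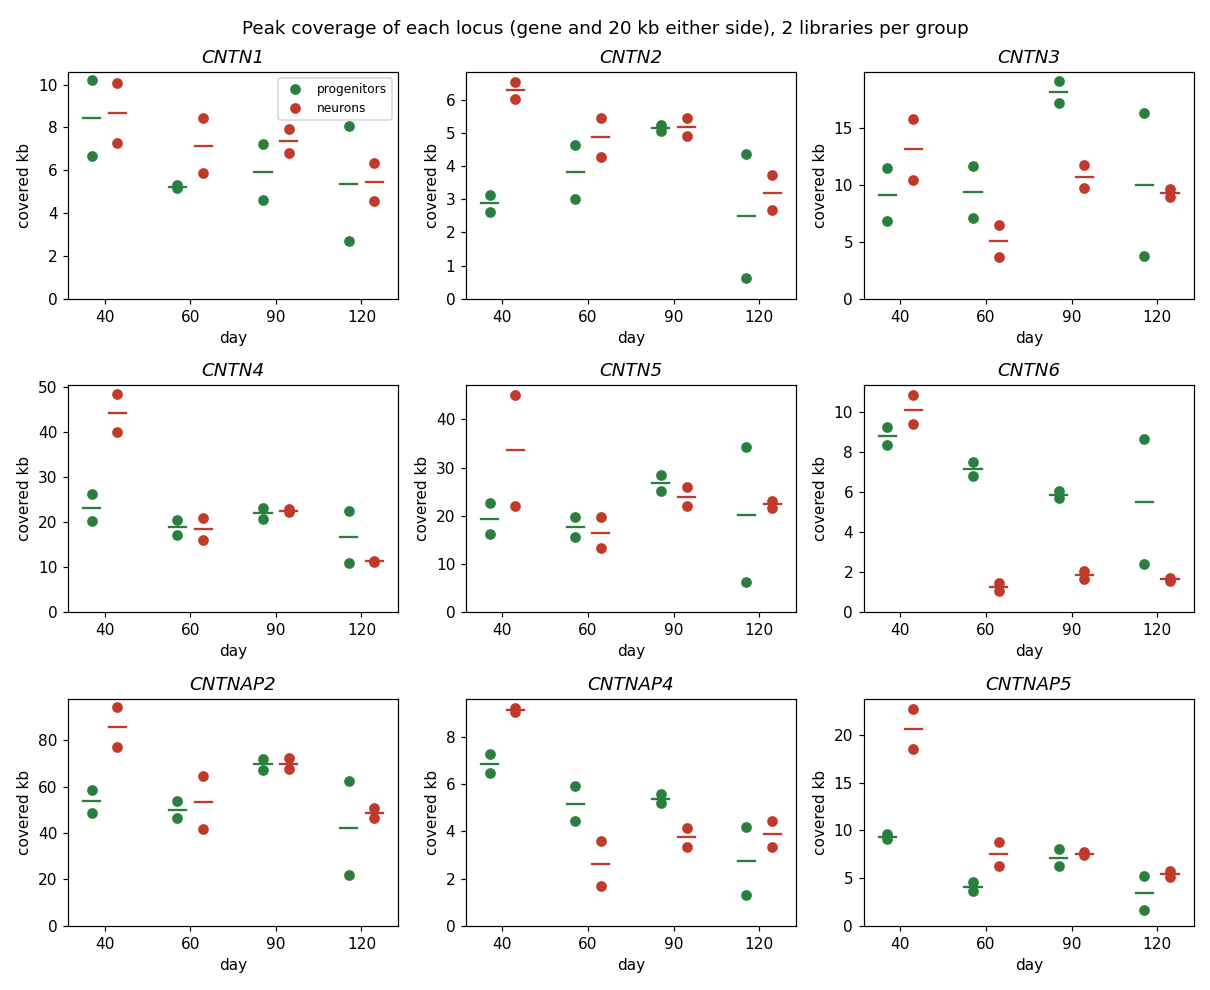
Covered kilobases (vertical axis, linear from 0) of each of the 9 loci by day, with progenitors at the left and neurons at the right of each day. Points are libraries and bars are means of 2. CNTN6 lies between 1.05 and 2.09 kb in the 6 neuron libraries from day 60 on, and every locus but CNTN1 and CNTN3 has its highest single value in a day 40 neuron library.

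Across all days, 4 of the 9 loci differed in scaled coverage between progenitors and neurons, 1 higher and 3 lower in progenitors. CNTN6 was higher by 1.11 ± 0.11 on the log2 scale (SE of the limma fit, n = 8 each, limma adjusted p = 1.31e-07). CNTNAP5 was lower (log2 difference −0.73 ± 0.10, limma adjusted p = 9.4e-06), as were CNTN2 (−0.55 ± 0.13, limma adjusted p = 0.00308) and CNTNAP2 (−0.33 ± 0.07, limma adjusted p = 0.00218). In the same fit, 21.0% of the 18751 genes tested were called, 9.89% higher and 11.1% lower in progenitors. The median difference over the 9 loci was −0.28, and over all genes −0.05. All 9 loci passed the filter of 500 covered bases in at least 2 libraries.

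The remaining 5 loci were not called. Their log2 differences were −0.28 ± 0.11 for CNTN1 (limma adjusted p = 0.0679), −0.30 ± 0.13 for CNTN5 (limma adjusted p = 0.0989), −0.17 ± 0.08 for CNTN4 (limma adjusted p = 0.144), 0.16 ± 0.12 for CNTN3 (limma adjusted p = 0.381) and 0.05 ± 0.11 for CNTNAP4 (limma adjusted p = 0.785). Several of these passed under another setting. With lists truncated to their strongest 36.9 Mb, called lists of equal length below, CNTN1 had −0.73 and CNTN4 −1.04 (limma adjusted p = 0.000954 and 0.00143). CNTN1 also passed without progenitor day 40 replicate 2, progenitor day 90 replicate 1 or neuron day 40 replicate 2 (limma adjusted p from 0.0368 to 0.0469), and CNTN4 over the gene body alone and with −log10 q of at least 2 (limma adjusted p = 0.0475 and 0.0204). CNTN5 passed with a pseudocount of 2000 bases (limma adjusted p = 0.00849) and without progenitor day 120 replicate 1 or neuron day 40 replicate 2 (limma adjusted p = 0.0106 and 0.0142), and ranged from −0.45 to −0.16 without 1 library. The number of peaks, scaled to the number in the library, gave 3 calls, CNTN6 (0.85 ± 0.15, limma adjusted p = 0.000302), CNTNAP2 (−0.34 ± 0.07, limma adjusted p = 0.00248) and CNTNAP5 (−0.45 ± 0.10, limma adjusted p = 0.0024). There 16.1% of 19206 genes were called. CNTN2 had 0.07 ± 0.11 in that readout (limma adjusted p = 0.751), so its difference lay in bases covered and was not detected in peak number.

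**Figure D2:**
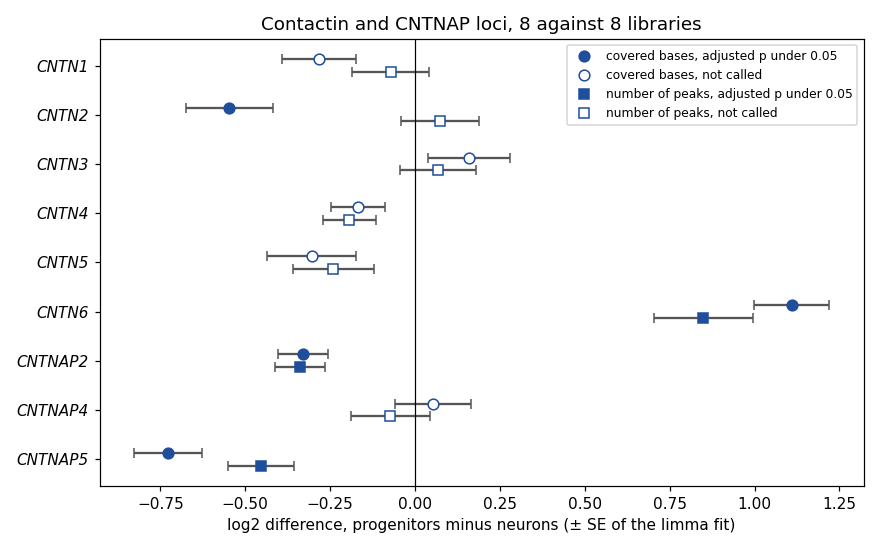
Log2 differences, progenitors minus neurons (horizontal axis), for covered bases (circles) and number of peaks (squares) at the 9 loci, with the SE of the limma fit over 8 against 8 libraries. Filled symbols passed an adjusted p of 0.05. CNTN6 lies at 1.11 and 0.85, and CNTNAP5 at −0.73 and −0.45.

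CNTN6 encodes a contactin, also called NB-3, that in the mouse takes part in the orientation of cortical apical dendrites (chromosome 3, 1093024 to 1404217). In progenitors its window held 8.35 and 9.22 kb of peaks at day 40, 7.51 and 6.80 kb at day 60, 5.71 and 6.03 kb at day 90, and 8.64 and 2.39 kb at day 120. In neurons it held 10.8 and 9.36 kb at day 40, 1.46 and 1.05 kb at day 60, 2.09 and 1.68 kb at day 90, and 1.73 and 1.55 kb at day 120. In kilobases, both neuron libraries lay above both progenitor libraries at day 40, and every progenitor library above every neuron library from day 60 on. In scaled coverage the day 40 order was turned, with 6.83 and 6.87 in progenitors and 6.76 and 6.65 in neurons. Progenitors had 11 to 14 peaks in 7 libraries and 3 in day 120 replicate 2, the shortest list. Neurons had 3 to 5 peaks from day 60 on, against 11 and 16 at day 40.

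Within single days, 8 of the 36 tests of a locus at a day were called, 2 at day 40, 2 at day 60, 1 at day 90 and 3 at day 120. Of all genes, 6.64%, 6.03%, 2.45% and 6.87% were called at these days. All 8 calls lay in CNTN6, CNTN4 and CNTNAP5, and without the scaling to list length only CNTN6 at day 60 was called. The scaled difference for CNTN6 was 0.14 ± 0.22 at day 40 (limma adjusted p = 0.756), 1.85 ± 0.22 at day 60 (limma adjusted p = 3.74e-05), 1.09 ± 0.22 at day 90 (limma adjusted p = 0.00944) and 1.35 ± 0.22 at day 120 (limma adjusted p = 0.0005), with n = 2 each. The day 90 call was lost without progenitor day 90 replicate 1, progenitor day 90 replicate 2 or neuron day 90 replicate 2 (limma adjusted p up to 0.186). With lists of equal length the day 60 value was 1.22 (limma adjusted p = 0.0663) and the day 90 value 0.36 (limma adjusted p = 0.679).

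After these values were seen, days 60 to 120 were set against day 40. The later days minus day 40 gave −0.51 ± 0.18 for the scaled coverage of CNTN6 in progenitors, which was called only without progenitor day 120 replicate 1 (limma adjusted p = 0.151 with all libraries and 0.036 without it), and −1.79 ± 0.18 in neurons, which was (limma adjusted p = 2.62e-06). The gap between these changes was 1.29 ± 0.25 (limma adjusted p = 0.00722), where 2.71% of all genes were called. That call was lost without either progenitor day 40 library or without neuron day 40 replicate 2 (limma adjusted p up to 0.0716), and with lists of equal length the value was 0.43 (limma adjusted p = 0.699).

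Single regions of the CNTN6 window were also examined, as the union of all peaks, with a two-sided Fisher exact test of how many libraries had a peak. Of 37 regions, 23 could be tested and 2 were called (8.70%), against 4.33% of the regions tested over the genome. When a region counted as open only with 50% of it under peaks, neither these nor the regions of CNTN4, CNTN1 and CNTN5 below were called. A region inside the gene, 139 kb past the start (chromosome 3, 1231868 to 1233015), held peaks of 7 progenitor libraries and of 0 neuron libraries (n = 8 each, Fisher exact test, adjusted p = 0.0323). One just past the end of the gene (1404339 to 1405107) had the same counts. The region over the start (1092280 to 1093579) had a peak in 8 progenitor and 6 neuron libraries, and the 2 without were the day 120 neurons. A region at 1376233 to 1377171, singled out after its values were seen, held peaks of 2 progenitor libraries, both of day 90, and of 8 neuron libraries (n = 8 each, Fisher exact test, adjusted p = 0.08).

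CNTN4, a contactin that binds the amyloid precursor protein APP, was called within single days and not over all days (chromosome 3, 2098866 to 3057959). Progenitors had 20.2 and 26.2 kb at day 40, 20.4 and 17.2 kb at day 60, 23.2 and 20.7 kb at day 90, and 22.4 and 11.03 kb at day 120. Neurons had 48.4 and 40.0 kb at day 40, 21.0 and 16.02 kb at day 60, 22.3 and 22.8 kb at day 90, and 11.2 and 11.4 kb at day 120. The day 40 neurons stood above all other libraries, in kilobases.

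The scaled difference for CNTN4 was −0.59 ± 0.16 at day 40 (limma adjusted p = 0.0259), −0.25 ± 0.16 at day 60 (limma adjusted p = 0.403), −0.37 ± 0.16 at day 90 (limma adjusted p = 0.245) and 0.54 ± 0.16 at day 120 (limma adjusted p = 0.042). Both calls were fragile. The day 40 call was lost without any 1 of the 4 day 40 libraries (limma adjusted p up to 0.318). The day 120 call held only without progenitor day 60 replicate 2, progenitor day 120 replicate 1 or any 1 of the 4 day 40 and day 60 neuron libraries, and was lost in the other 10 (limma adjusted p up to 0.298). It was also lost with flanks of 5 kb, over the gene body alone, with a pseudocount of 2000 bases, with −log10 q of at least 2, without the variance trend and with lists of equal length (limma adjusted p from 0.0521 to 0.260). The day 120 difference minus the day 40 difference, set up after the values were seen, was 1.13 ± 0.23 (limma adjusted p = 0.0112), where 1.97% of all genes were called. It was lost without progenitor day 40 replicate 1 or neuron day 120 replicate 1 (limma adjusted p up to 0.0886).

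Within CNTN4, 94 of 134 regions could be tested and 3 were called (3.19%), a share under that of the genome. A region in the last part of the gene (2971812 to 2972801) had a peak in 7 progenitor and 0 neuron libraries. Regions at 2558519 to 2559403 and at 2944904 to 2945741 had a peak in 0 progenitor and 7 neuron libraries each (n = 8 each, Fisher exact test, adjusted p = 0.0323 for all 3). The widest region in all 16 libraries lay over the first annotated start (2097574 to 2100465) and held 1936 ± 491 bases in progenitors and 2055 ± 289.5 bases in neurons (SD, n = 8 each). IL5RA also lies in the CNTN4 window.

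CNTNAP5, which encodes a neurexin-like membrane protein, had less open chromatin in progenitors (chromosome 2, 124025287 to 124921219). Progenitors had 9.59 and 9.07 kb at day 40, 3.66 and 4.56 kb at day 60, 8.03 and 6.22 kb at day 90, and 5.26 and 1.71 kb at day 120. Neurons had 22.7 and 18.5 kb at day 40, 8.79 and 6.25 kb at day 60, 7.74 and 7.40 kb at day 90, and 5.13 and 5.72 kb at day 120. Raw lengths overlapped at days 90 and 120 only, and scaled values overlapped at no day.

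The scaled difference for CNTNAP5 was −0.76 ± 0.20 at day 40 (limma adjusted p = 0.0203), −1.07 ± 0.20 at day 60 (limma adjusted p = 0.00212), −0.42 ± 0.20 at day 90 (limma adjusted p = 0.295) and −0.65 ± 0.20 at day 120 (limma adjusted p = 0.048). The day 40 call was lost without any 1 of the 4 day 40 libraries (limma adjusted p up to 0.180), and the day 60 call without progenitor day 60 replicate 1 (limma adjusted p = 0.0771). The day 120 call held only without a day 60 library of either population or without progenitor day 120 replicate 1, and was lost in the other 11 (limma adjusted p up to 0.384). With lists of equal length the day 40 and day 120 calls were lost (limma adjusted p = 0.292 and 0.162). Over all days the call held without any 1 library, with values from −0.78 to −0.67.

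CNTNAP5 had lower scaled coverage at days 60 to 120 than at day 40, by −0.93 ± 0.16 in progenitors (limma adjusted p = 0.00278) and by −0.98 ± 0.16 in neurons (limma adjusted p = 0.000685). With lists of equal length both calls were lost, at −1.01 in progenitors and −0.42 in neurons (limma adjusted p = 0.186 and 0.535), and the progenitor call was lost without scaling (limma adjusted p = 0.266). In progenitors 2.43% of all genes were called in this comparison. The progenitor call was lost without progenitor day 40 replicate 1 (limma adjusted p = 0.151). No region of CNTNAP5 was called, of 41 tested and 65 in all. Its widest region in all 16 libraries lay over the start (124024263 to 124027481). A region at 124318852 to 124320407, singled out after its values were seen, had a peak in 0 progenitor and 5 neuron libraries (n = 8 each, Fisher exact test, adjusted p = 0.167).

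**Figure D3:**
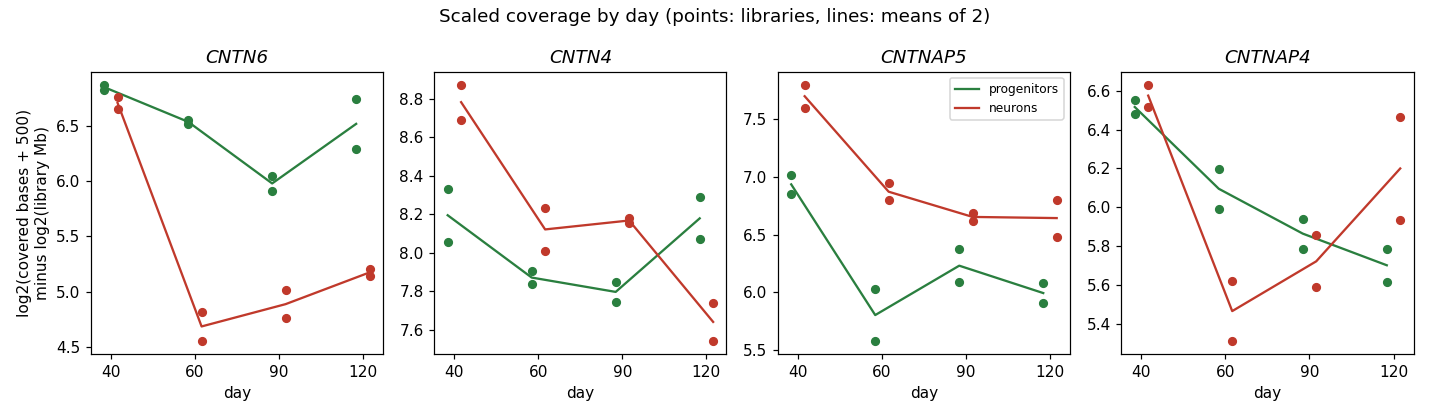
Scaled coverage (log2 of covered bases plus 500 minus log2 of the library's covered megabases, vertical axis) of CNTN6, CNTN4, CNTNAP5 and CNTNAP4 at days 40, 60, 90 and 120, progenitors left of neurons. Points are libraries and lines join means of 2. CNTN6 has differences of 0.14 at day 40 and of 1.85, 1.09 and 1.35 at days 60, 90 and 120. CNTN4 has −0.59 at day 40 and 0.54 at day 120.

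The change with age was also taken as days 90 and 120 minus days 40 and 60. In progenitors, limma called 0 of 9 loci between late and early days, against 2.91% of all genes. An unadjusted p under 0.05 was found at 3 of the 9 loci and at 3058 of the 18751 genes tested. The lowest p was that of CNTNAP4, at −0.52 ± 0.16 (limma adjusted p = 0.0684), which was called with flanks of 5 kb and with lists of equal length (limma adjusted p = 0.049 and 0.0364). For the loci called in neurons the values were −0.05 ± 0.11 for CNTN4, −0.45 ± 0.16 for CNTN6, −0.26 ± 0.14 for CNTNAP5 and 0.51 ± 0.17 for CNTN3 (limma adjusted p = 0.929, 0.119, 0.391 and 0.0977). CNTN3 passed with a pseudocount of 2000 bases, with −log10 q of at least 2, with lists of equal length and without progenitor day 120 replicate 2 (limma adjusted p from 0.00806 to 0.0345), and CNTN6 without progenitor day 120 replicate 1 (limma adjusted p = 0.0315).

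In neurons 4 of 9 loci were called, against 5.67% of all genes. CNTN4 was lower late (−0.55 ± 0.11, limma adjusted p = 0.00477), as were CNTN6 (−0.67 ± 0.16, limma adjusted p = 0.0108) and CNTNAP5 (−0.64 ± 0.14, limma adjusted p = 0.00779), and CNTN3 was higher late (0.56 ± 0.17, limma adjusted p = 0.0499). With lists of equal length all 4 calls were lost (limma adjusted p = 0.068 for CNTN4, 0.394 for CNTN6, 0.543 for CNTNAP5 and 0.186 for CNTN3), with CNTNAP5 at −0.39, and all 4 were lost without scaling (limma adjusted p from 0.0958 to 0.684). The scaled neuron means of CNTN6 were 6.71, 4.68, 4.89 and 5.17 from day 40 to day 120. Both late days thus lay below day 40 but above day 60. Marker loci also differed by day in the same libraries. In neurons the mean scaled coverage of the 8 progenitor markers was 6.66 and 6.80 at day 120 against 6.25 and 6.31 at day 40, that of SOX2 6.71 and 7.04 against 5.67 and 5.73, and that of RBFOX3 8.76 and 8.42 against 9.21 and 9.61. The mean of the 8 neuronal markers, RBFOX3 among them, overlapped, with 7.266 and 7.087 at day 120 against 7.185 and 7.311 at day 40. The 6 inhibitory-neuron markers had 6.31 and 6.19 at day 120 against 6.37 and 6.71 at day 40. The part of these differences in the neuron values was not tested. The CNTN3 call held only without a day 40 or day 60 progenitor library, a day 120 progenitor library or neuron day 40 replicate 1, and was lost in the other 9 (limma adjusted p up to 0.230). The CNTN6 call was lost without neuron day 90 replicate 2 (limma adjusted p = 0.0511), and the CNTNAP5 call without neuron day 120 replicate 1 (limma adjusted p = 0.0595). The difference between the populations' changes had an unadjusted p under 0.05 at 2 of 9 loci and at 2374 of the 18751 genes tested. It was called by limma for 0 of 9 loci, against 0.64% of all genes. It was 0.50 ± 0.16 for CNTN4 (limma adjusted p = 0.150), 0.22 ± 0.22 for CNTN6 (limma adjusted p = 0.753) and 0.38 ± 0.20 for CNTNAP5 (limma adjusted p = 0.441).

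CNTNAP2 encodes the transmembrane partner of CNTN2 that gathers potassium channels along the axon, and its 2304 kb on chromosome 7 (146116801 to 148420998) make it the longest of the 9. Its window held 22.01 kb at the lowest, 56.0 kb at the median and 71.8 kb at the highest in progenitors, and 42.0, 66.2 and 94.2 kb in neurons. The raw values overlapped. The scaled values were 9.24 to 9.53 in progenitors and 9.60 to 9.83 in neurons, so that every progenitor library lay under every neuron library. CNTNAP2 was alone among the 9 in this, and 1.87% of all genes tested had populations that did not overlap. By day the difference was −0.34 ± 0.15 at day 40, −0.34 ± 0.15 at day 60, −0.34 ± 0.15 at day 90 and −0.30 ± 0.15 at day 120, none of them called alone (limma adjusted p from 0.186 to 0.256). It was −0.28 and not called without the scaling to list length (limma adjusted p = 0.549).

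The lower total in progenitors did not hold along the whole CNTNAP2 gene. The gene was divided into 10 segments of equal length from start to end. In segment 1, progenitors had 2.41 ± 1.24 kb and neurons 5.94 ± 1.70 kb (SD, n = 8 each). In segment 3 the values were 5.68 ± 3.003 and 8.47 ± 2.29 kb. In segment 9 the order was turned, with 9.75 ± 2.09 kb in progenitors and 4.33 ± 2.77 kb in neurons. Segment 10 held the most in both, 13.3 ± 3.18 kb in progenitors and 15.7 ± 5.08 kb in neurons. These values are a description, and the segments were not tested.

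**Figure D4:**
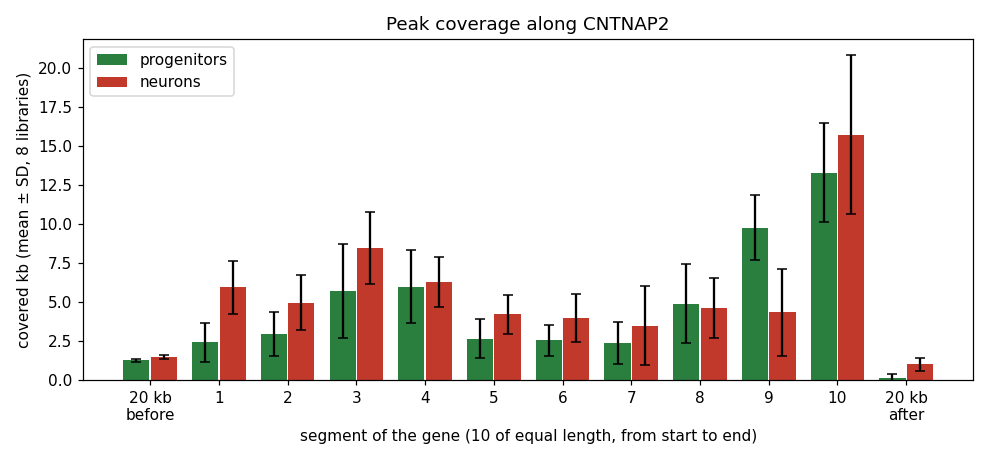
Covered kilobases (mean ± SD over 8 libraries, vertical axis from 0) in the 20 kb before CNTNAP2, each of 10 equal segments of the gene from start to end and the 20 kb after it, progenitors left of neurons. Progenitors have 2.41 kb in segment 1 and 9.75 kb in segment 9, and neurons 5.94 kb and 4.33 kb.

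CNTNAP2 held 11 of the 21 regions called in the 9 windows, from 188 tested and 285 in all. The called share was 5.85%, against 4.33% over the genome, and CNTNAP2 is also the gene with the most regions tested. Of the 11, 6 had a peak more often in progenitors and 5 in neurons. With 50% of a region under peaks required, 3 were called in CNTNAP2, all for progenitors. Over the genome that setting gave 714 calls for progenitors and 155 for neurons. A region in segment 9, 1875 kb past the start (147990759 to 147992192), had a peak in 8 progenitor and 0 neuron libraries and covered 1132.5 ± 266.0 bases in progenitors. One 1163 kb past the start (147279640 to 147280622) had the same counts and covered 852 ± 119 bases in progenitors (SD, n = 8, Fisher exact test, adjusted p = 0.0118 for both). In the other direction, a region past the end of the gene (148433521 to 148434950) had a peak in 1 progenitor and 8 neuron libraries. Another, 209 kb into the gene (146325661 to 146326915), had a peak in 0 progenitor and 7 neuron libraries (n = 8 each, Fisher exact test, adjusted p = 0.0323 for both).

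CNTN2 encodes TAG-1, a contactin of early growing axons and the partner of CNTNAP2 beside the node (chromosome 1, 205042949 to 205078289). Progenitors had 0.631 kb at the lowest, 3.75 kb at the median and 5.24 kb at the highest, and neurons 2.68, 5.17 and 6.54 kb. The populations overlapped. By day the scaled difference was −0.67 ± 0.26, −0.61 ± 0.26, −0.33 ± 0.26 and −0.56 ± 0.26 from day 40 to day 120, with none called (limma adjusted p from 0.117 to 0.553). The day 40 value passed without either progenitor day 120 library (limma adjusted p = 0.0327 and 0.0312), and that of day 120 without progenitor day 120 replicate 1, with −log10 q of at least 2 and with lists of equal length (limma adjusted p = 0.0136, 0.0341 and 0.0346). Progenitor means were lower in both flanks. The 20 kb before the start held 1.45 ± 1.17 kb in progenitors and 2.67 ± 0.803 kb in neurons, and the 20 kb after the end held 0 kb in every progenitor library and 0.442 ± 0.195 kb in neurons, while the gene body held 2.14 ± 0.784 and 1.76 ± 0.567 kb (SD, n = 8 each). Over the gene body alone the log2 difference was 0.14, in the opposite direction, and with flanks of 5 kb it was −0.20 (limma adjusted p = 0.366). Without the scaling to list length it was −0.50 and not called (limma adjusted p = 0.229). TMEM81 and RBBP5 also lie in the window, so which gene the flanking peaks belong to cannot be told here.

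Among the loci not called, CNTN1 encodes the contactin of the paranodal junction, which pairs there with CNTNAP1. Its window on chromosome 12 had 2.71, 5.98 and 10.2 kb (lowest, median and highest) in progenitors and 4.56, 7.04 and 10.1 kb in neurons. Its 1 called region, of 28 tested (3.57%, under the share of the genome), at 41022945 to 41024031, had a peak in 7 progenitor and 0 neuron libraries (n = 8 each, Fisher exact test, adjusted p = 0.0323). The widest region in all 16 libraries (40691906 to 40694028) lay at the beginning of the gene as RefSeq gives it, 134156 bases from the nearest start in the promoter table.

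CNTN3, expressed in neurons and known from the rat as BIG-1, had 3.76, 11.6 and 19.2 kb in progenitors and 3.68, 9.73 and 15.8 kb in neurons (lowest, median and highest). CNTN5, known as NB-2 and studied in the auditory pathway of the mouse, had 6.34, 21.2 and 34.2 kb in progenitors and 13.4, 22.1 and 45.1 kb in neurons. Of its 89 tested regions, 4 were called (4.49%, close to the share of the genome). Those at 100220671 to 100222240 and 99314509 to 99315442 on chromosome 11 had a peak in 7 progenitor and 0 neuron libraries, that at 99238102 to 99239019 in 0 and 7, and that at 100066143 to 100067706 in 1 and 8 (n = 8 each, Fisher exact test, adjusted p = 0.0323 for all 4).

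CNTNAP4, which in the mouse affects GABA release from interneurons, had 1.31, 5.38 and 7.27 kb in progenitors and 1.68, 3.87 and 9.21 kb in neurons. Its neuron values were 1.68 to 4.43 kb in the libraries of days 60 to 120, against 9.06 and 9.21 kb at day 40. Days 60 to 120 had lower scaled coverage than day 40 in neurons, by −0.78 ± 0.18 (limma adjusted p = 0.0071), so that with CNTN4, CNTN6 and CNTNAP5 it made 4 of 9 loci in this comparison, set up after the values were seen, against 12.9% of all genes called and 2.95% called lower. The median over all genes was 0.25 in it. The CNTNAP4 call was lost without neuron day 40 replicate 2 (limma adjusted p = 0.132), and with lists of equal length all 4 calls were lost (limma adjusted p from 0.0744 to 0.535).

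Single regions were also counted by day over the 9 windows. At day 40, peaks of both progenitor libraries but of no neuron library lay in 56 regions (6.98% of 802, against 6.05% of all 321056 regions of the genome), at day 60 in 77 (9.60% against 9.92%), at day 90 in 64 (7.98% against 8.56%) and at day 120 in 34 (4.24% against 4.6%). Peaks of both neuron libraries but of no progenitor library lay in 125 regions at day 40 (15.6% against 10.7%), 65 at day 60 (8.10% against 4.99%), 58 at day 90 (7.23% against 5.31%) and 66 at day 120 (8.23% against 6.58%). The progenitor shares lay near those of the genome and the neuron shares above them, which was not tested, and the lists compared differ in length.

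Starts were then separated from the rest of each window, a split chosen after the data were seen. Within 2 kb of annotated starts, 4 of 9 loci were called, against 6.46% of the 12425 genes with enough coverage there. CNTN6 held 0.966 ± 0.252 kb at its start in progenitors and 0.457 ± 0.413 kb in neurons (SD, n = 8 each, log2 difference 0.67 ± 0.18, limma adjusted p = 0.0117). CNTN3, not called over its whole window, held 2.17 ± 0.516 kb at the start in progenitors and 1.45 ± 0.870 kb in neurons (0.56 ± 0.17, limma adjusted p = 0.023). At CNTN3 the ranges overlapped, with 1.147 to 2.665 kb in progenitors and 0 to 2.354 kb in neurons. The ranges also overlapped at the other starts called. CNTNAP5 held 1.25 ± 0.333 kb in progenitors and 2.02 ± 0.713 kb in neurons (−0.55 ± 0.15, limma adjusted p = 0.0095). CNTN2 held 0.871 ± 0.581 kb in progenitors and 1.58 ± 0.866 kb in neurons (−0.63 ± 0.17, limma adjusted p = 0.0109).

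These are the promoters printed above, and among them only that of CNTN6 held a motif searched. Promoters of CNTN1, CNTN4 and CNTNAP4, not called at their starts, held one too. A peak overlapped the promoter sequence in all 16 libraries at CNTN1, CNTN2, CNTN4, CNTN5, CNTNAP2, CNTNAP4 and CNTNAP5. At CNTN6 it did so in 8 progenitor and 6 neuron libraries, and at CNTN3 in 7 and 4. Away from the starts, CNTN6 (1.10 ± 0.13, limma adjusted p = 4.95e-06), CNTNAP5 (−0.73 ± 0.11, limma adjusted p = 7.66e-05) and CNTNAP2 (−0.33 ± 0.08, limma adjusted p = 0.00467) were called, 3 of 9 against 24.8% of 14549 genes.

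**Figure D5:**
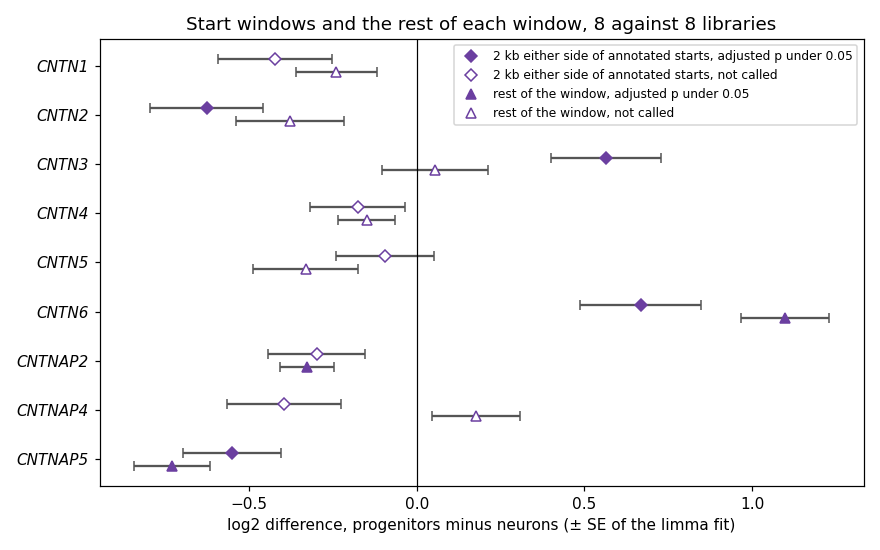
Log2 differences, progenitors minus neurons (horizontal axis, ± SE of the limma fit over 8 against 8 libraries), within 2 kb of annotated starts (diamonds) and in the rest of each window (triangles). Filled symbols passed an adjusted p of 0.05. CNTN6 and CNTNAP5 are filled in both, CNTN3 (0.56) and CNTN2 (−0.63) at the start alone, and CNTNAP2 (−0.33) away from it alone.

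Over the 9 windows there were 802 regions, of which 523 could be tested and 21 were called (4.02%), 12 for progenitors and 9 for neurons. Over the genome 4.33% of the regions tested were called, 3.06% in progenitors and 1.27% in neurons, so the family's share lay near that of the genome. Of the 802, 26 were open in all 16 libraries and 243 in 1 library, and 758 lay at least partly inside a gene of the family.

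The partners of the family were read from a list of 25 genes, of which 2 had higher and 7 lower coverage in progenitors, against 9.89% and 11.1% of all genes, with a median log2 difference of −0.15 against −0.05 over all genes. In the L1 family, CHL1 (−0.60 ± 0.14, limma adjusted p = 0.00294) and NFASC (−0.53 ± 0.09, limma adjusted p = 0.000216) were lower, and L1CAM (−0.47 ± 0.19, limma adjusted p = 0.0727) and NRCAM (0.09 ± 0.08, limma adjusted p = 0.490) were not called. Of 8 genes of the juxtaparanodal complex, the assembly of CNTN2, CNTNAP2 and potassium channels, EPB41L3, a membrane scaffold, was lowest (−0.91 ± 0.09, limma adjusted p = 1.71e-07). KCNA1 and KCNA2, which encode channel subunits, were lower too, at −0.47 ± 0.15 and −0.33 ± 0.11 (limma adjusted p = 0.0228 and 0.0423). LGI1, a secreted ligand of ADAM22, was higher at 0.46 ± 0.13 (limma adjusted p = 0.0112).

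None of 3 receptor phosphatases, 3 genes of the amyloid precursor family or 3 other CNTNAP genes was called, with log2 differences from −0.23 to 0.15. PTPRZ1 and PTPRG, phosphatases that bind contactins, had −0.12 and −0.20, APP had 0.02 and CNTNAP1 had −0.22. The 2 others of the CNTNAP genes, CNTNAP3 and CNTNAP3B, are near-identical copies, so reads may be split between them. ANK3, which anchors membrane proteins at the axon initial segment, was lower at −0.51 ± 0.10 (limma adjusted p = 0.000453), as was ADGRL1 at −0.37 ± 0.12 (limma adjusted p = 0.0243), while NOTCH1 was higher at 0.29 ± 0.10 (limma adjusted p = 0.0432). TNR, an extracellular matrix ligand of CNTN1, was not called at −0.11 ± 0.10 (limma adjusted p = 0.473).

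The 9 loci did not all vary together over the libraries, though some pairs did. Pearson's r of scaled coverage over the 16 libraries was between −0.60, for CNTN2 and CNTN6, and 0.71, for CNTN2 and CNTNAP2. These values describe points that share a library, its list length and its group. Among 4775 genes with at least 5 kb of coverage on average and more than 1 Mb away, the pattern of CNTN6 was most like that of UNC5C (r = 0.93) and SOX13 (r = 0.91). That of CNTNAP2 was most like CDH18 (r = 0.94) and PPFIA2 (r = 0.91), and that of CNTNAP5 most like NALF1 (r = 0.89) and DCC (r = 0.85). CNTN2 was nearest to MSRA (r = 0.90) and CNTN4 to PIK3AP1 (r = 0.79), each over 16 libraries.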

How the data were processed

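ATAC-seq broadPeak lists of 16 libraries were analysed. Per the submitters' processing notes, MACS2 2.1.2, SAMtools 1.9, Picard, BWA 0.7.17 and Trim Galore 0.5.0 were among the tools, and hg38 the build. The lists deposited by the authors give for each peak a score, a fold enrichment ratio and −log10 p and q values, and no read counts, so depth is unknown. Each library has its own list. Between 95 and 387 peaks outside chromosomes 1 to 22 and X were left out per library. The fold, score and −log10 p were not used, and −log10 q only as an alternative threshold.

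Covered bases and peaks were counted in each RefSeq gene (GRCh38.p14) with 20 kb on either side. Log2(bases + 500), scaled to the list's covered Mb, was fitted with limma 3.58.1 (R 4.3.3) with 8 group means and a variance trend. Genes with at least 500 bases in 2 or more libraries were kept, and Benjamini-Hochberg adjustment ran over all of them, with calls at 0.05. Peak number was treated alike, as log2(peaks + 1). A value is on the log2(value + pseudocount) scale and so understates changes of low loci. Regions are the union of all peaks, tested with Fisher's exact test (SciPy 1.17.1, Python 3.11.15) where 2 to 14 libraries had a peak. Both tests were tested on simulated data in which libraries were drawn independently. The simulations held no differences in list length and no effects shared within a day, so they do not cover these. List-length alternatives kept each library's strongest peaks up to 36.875 Mb.

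Day 40 and 60 were called early and day 90 and 120 late. All 9 genes are named. Named regions were up to 2 called per direction and gene and the widest present in all libraries, and others are said to be singled out afterwards. Partner genes were named if called, with up to 2 others per list. The members and lists were chosen with earlier results of these data known. The start windows, the contrasts with day 40 alone and the day 120 minus day 40 contrast were added after the values had been seen.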

Additional observations from a re-analysis of the deposited data

Results flagged for a closer look

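In 3 results a contrast between days of the difference between progenitors and neurons was called by limma. The contrasts were chosen after the values had been seen, and no explanation was tested. The planned contrast, late minus early, was called for 0 of 9 loci. For CNTN6, the change of scaled coverage from day 40 to days 60 to 120 differed between progenitors and neurons by 1.29 on the log2 scale (limma adjusted p = 0.00722, 2 libraries per population and day). It was 0.80 with a pseudocount of 2000 bases, 1.80 without scaling and 0.43 with lists of equal length. It was called in none of these (limma adjusted p = 0.114, 0.137 and 0.699). For CNTN4, the difference at day 120 minus that at day 40 was 1.13 (limma adjusted p = 0.0112), and it was not called without scaling or without the variance trend (limma adjusted p = 0.446 and 0.076). For CNTN6 the same contrast gave 1.20 (limma adjusted p = 0.0403). That call was lost without any 1 of 11 libraries, the other 5 being progenitor day 120 replicate 2 and the neuron libraries of days 60 and 90, and the values ranged from 0.98 to 1.43 (limma adjusted p up to 0.171). It was 0.82 with a pseudocount of 2000 bases and 1.21 with lists of equal length (limma adjusted p = 0.391 and 0.275). Dixon's test set no single library apart from the other 7 of its population in scaled coverage, at 9 loci and in 18 groups. It pools the days and looks for 1 library, so 2 high libraries of the same day can hide each other. At CNTN6 the day 40 neurons had 6.76 and 6.65, against 4.55 to 5.20 in neurons of days 60 to 120.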

How the results depend on the processing

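Over all days, the differences of CNTN6 and CNTNAP5 in covered bases kept their direction and call under all the alternatives run. They also did so without any 1 library. Of the alternatives to locus coverage over all days, only leaving out the scaling to list length moved the count of 4 calls by more than 1.5 times, to 2, 1 higher and 1 lower in progenitors. The 8 calls within days became 5 with a pseudocount of 2000 bases, 1 without scaling and 4 without the variance trend. The 0 late minus early calls in progenitors became 1 with a pseudocount of 2000 bases, with flanks of 5 kb, with −log10 q of at least 2 and with day 40 as early, and 2 with lists of equal length. The 4 calls in neurons became 2 over the gene body alone, 0 without scaling and 0 with lists of equal length. The 0 calls for the difference of these changes became 1 with lists of equal length and 1 with day 40 as early. The 3 calls in peak number became 0 without scaling and 6 with lists of equal length, 1 higher and 5 lower. The 21 called regions became 3 where peaks had to cover 50% of a region and 2 where all regions were tested. The causes were not tested.

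Without 1 library at a time, the counts ranged from 4 to 6 over all days, 4 to 11 within days, 0 to 1 and 2 to 4 late minus early in progenitors and in neurons, 0 to 0 for the difference, 3 to 4 in peak number and 21 to 33 for regions. Counts within days fell to 4 or 5 without any 1 of the 4 day 40 libraries, without either progenitor day 90 library or without neuron day 90 replicate 2. The late neuron count was 2 without neuron day 90 replicate 2 or neuron day 120 replicate 1, and the region count 33 without neuron day 40 replicate 2. A group left with 1 library was assumed to vary like the other groups. The median over all genes was 0.16, −0.12, −0.13 and −0.06 from day 40 to day 120 with scaling, and −0.18, 0.16, 0.20 and −0.14 without it, so direction within a day is relative to it.

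Replicate numbers were shared by all groups. Deviations from group means correlated at −0.123 to 0.247 over 28 pairs of groups (median 0.00897), 6 of them over 0.1. Progenitors and neurons of the same day were not looked at apart, so pairing of the populations within a day was not tested. A fit with the replicate number as a block moved no count by over 1.5 times, and the CNTNAP5 call at day 120 was lost in it (limma adjusted p = 0.0505).

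Among 86 results for single loci, 34 changed direction under at least 1 alternative, and of these only CNTN2 over all days had been called. Over the gene body alone the values were 0.14 for CNTN2 over all days, 0.17, 0.070 and 0.53 for CNTN2 at days 40, 60 and 120, 0.18 for CNTN3 at day 120, −0.12 for CNTN6 and 0.068 for CNTNAP4 at day 40. Late minus early, they were −0.058 for CNTN2 and 0.062 for CNTN4 in progenitors, 0.051 for CNTN1 in neurons, and 0.29 for CNTN3 and −0.0064 for CNTNAP2 for the difference of the changes. With flanks of 5 kb the values were 0.53 for CNTN2 at day 120, 0.0024 for CNTNAP4 at day 40, and 0.087 for CNTN3 and −0.0005 for CNTNAP2 for the difference of the changes. Without scaling they were −0.047 for CNTN1 and −0.19 for CNTN6 at day 40, 0.032 for CNTN4 and 0.11 for CNTN5 at day 60, and 0.16 for CNTN5 at day 90. Late minus early without scaling gave −0.054 for CNTN2 and −0.022 for CNTNAP2 in progenitors, −0.19 for CNTNAP2 in neurons, and 0.10 for CNTN3 and 0.093 for CNTN5 for the difference.

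With lists of equal length the values were −0.37 for CNTN1 and 0.48 for CNTNAP4 at day 40, −1.06 for CNTNAP4 at day 90, and 0.37 for CNTN3 and 0.44 for CNTNAP4 at day 120. Late minus early in progenitors they were −0.68 for CNTN2, 0.74 for CNTN4, −0.18 for CNTN5 and 0.095 for CNTNAP5, and for the difference of the changes 0.005 for CNTN1, −0.68 for CNTN2, 0.80 for CNTN3 and −0.023 for CNTNAP2. Days 60 to 120 minus day 40, they were 0.46 for CNTN4 in progenitors, and −0.29 for CNTNAP4 and −0.59 for CNTNAP5 for the difference. With −log10 q of at least 2 they were 0.10 for CNTNAP4 at day 40, −0.14 for CNTN2 late minus early in progenitors, −0.039 for CNTN2, 0.060 for CNTN3 and −0.029 for CNTNAP2 for the difference of these changes, and −0.10 for CNTNAP5 for the difference with day 40 as early. A pseudocount of 100 bases gave −0.019 for CNTN2 late minus early in progenitors, and 2000 bases gave 0.029 for CNTN1 late minus early in neurons and 0.0008 for CNTNAP4 at day 40. At starts CNTNAP4 had −0.40 over all days.

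Without 1 library at a time, the results that changed direction ranged as follows. CNTNAP4 had −0.013 to 0.12 over all days. At day 40 CNTN3 had −0.49 to 0.13 and CNTN5 −0.84 to 0.083, and at day 120 CNTN1 had −0.22 to 0.042, CNTN3 −0.52 to 0.26 and CNTN5 −1.06 to 0.071. Late minus early in progenitors, CNTN2 had −0.17 to 0.28, CNTN4 −0.11 to 0.024 and CNTN5 −0.049 to 0.52, and in neurons CNTN1 had −0.11 to 0.070 and CNTNAP4 −0.19 to 0.074. For the difference, CNTN2 had −0.029 to 0.42, CNTN3 −0.24 to 0.15, CNTN5 −0.34 to 0.23 and CNTNAP2 −0.049 to 0.090, and CNTNAP5 had −0.050 to 0.15 with day 40 as early. Depth is unknown, so what it limits could not be given.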
